A study of Mus musculus with 10 samples.

Results

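Monoamine neurons make up a small part of the brain, and the transcripts that define them mark where their cell bodies lie. The arrays measured 10 genes of monoamine synthesis, transport and breakdown, namely Th, Ddc, Tph2, Dbh, Slc18a2, Slc6a3, Slc6a4, Fev, Maoa and Maob. They were chosen by name from 18539 genes to which an array probe could be matched, and 12 probes measured them, with 2 probes each for Ddc and Slc18a2. The RNA came from the left hemibrain of 10 male C57BL/6J mice, single-housed from 3 weeks of age and fed for 20 weeks on SD, a standard lab diet, or FD, a fish oil enriched diet high in n-3 PUFA, to an age of 5 months. Hemibrain RNA was labeled with Cy5 and a comparison RNA with Cy3, so each probe gave a log2 ratio of Cy5 to Cy3. The methods call the Cy3 RNA a commercial reference, whereas the labels call it a pool of hemibrains from SD mice. The diet entries give FD for every Cy5 sample, the descriptions call the same samples controls, and the methods speak of both diets, so no array was assigned to a diet. Values are therefore given for each array, under the number of its animal, or as the range and median of the 10 arrays, and FD was not compared with SD.

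Dopamine and noradrenaline are made from tyrosine, which tyrosine hydroxylase (Th) turns into L-DOPA in the rate-limiting step, and serotonin is made from tryptophan, on which tryptophan hydroxylase (Tph2) acts in neurons. Aromatic amino acid decarboxylase (Ddc) completes both dopamine and serotonin, and dopamine beta-hydroxylase (Dbh) makes noradrenaline from dopamine. The vesicular carrier Slc18a2 loads the amines into synaptic vesicles, Slc6a3 and Slc6a4 take dopamine and serotonin back up at the cell surface, and the oxidases Maoa and Maob break the amines down. Fev is the transcription factor that keeps serotonin neurons in their state. Dopamine neurons lie mostly in the midbrain, serotonin neurons in the raphe nuclei and noradrenaline neurons in the brainstem, whereas Maob is also made by astrocytes.

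The promoter sequences of 4 genes are shown because Th and Slc18a2 share a motif and because Slc6a4 and Tph2 varied together over all 10 arrays. Pearson's r of the log2 ratios of Slc6a4 and Tph2 was 0.76 over 10 arrays but 0.08 without C10-434 and C10-437. Each sequence runs from 250 bases before to 50 bases after the RefSeq start, 5′ to 3′ on the strand of the gene, in build GRCm38.p6. Th lies on the minus strand at chr7:142899946-142900245, Slc18a2 on the plus strand at chr19:59260628-59260927, Tph2 on the minus strand at chr10:115184973-115185272 and Slc6a4 on the plus strand at chr11:76998347-76998646. Capitals mark matches, on either strand, to a cAMP response element, a TATA box or a GATA motif, spelled out after the sequences.
Th: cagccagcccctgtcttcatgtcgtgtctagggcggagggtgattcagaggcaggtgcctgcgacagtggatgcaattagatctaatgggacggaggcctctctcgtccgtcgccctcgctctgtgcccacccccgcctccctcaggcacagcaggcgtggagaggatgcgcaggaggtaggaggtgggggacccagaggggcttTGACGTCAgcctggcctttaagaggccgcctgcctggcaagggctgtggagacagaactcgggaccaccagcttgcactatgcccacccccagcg
Slc18a2: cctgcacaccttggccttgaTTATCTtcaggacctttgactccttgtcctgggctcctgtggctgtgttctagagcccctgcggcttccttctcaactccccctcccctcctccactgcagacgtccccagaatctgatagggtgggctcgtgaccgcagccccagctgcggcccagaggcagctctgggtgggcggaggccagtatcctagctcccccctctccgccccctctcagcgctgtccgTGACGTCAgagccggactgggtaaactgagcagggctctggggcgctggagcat
Tph2: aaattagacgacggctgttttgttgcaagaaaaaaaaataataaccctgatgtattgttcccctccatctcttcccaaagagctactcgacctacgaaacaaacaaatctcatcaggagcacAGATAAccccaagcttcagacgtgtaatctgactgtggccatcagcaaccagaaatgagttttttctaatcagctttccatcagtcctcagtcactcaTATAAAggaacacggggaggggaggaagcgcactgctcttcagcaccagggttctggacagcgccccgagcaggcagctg
Slc6a4: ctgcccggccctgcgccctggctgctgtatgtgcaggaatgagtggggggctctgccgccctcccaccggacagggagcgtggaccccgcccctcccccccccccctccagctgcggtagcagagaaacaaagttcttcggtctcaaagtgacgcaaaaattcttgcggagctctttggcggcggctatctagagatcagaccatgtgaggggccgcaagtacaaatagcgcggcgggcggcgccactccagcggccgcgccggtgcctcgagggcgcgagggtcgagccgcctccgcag
The cAMP response element (TGACGTCA) began 45 bases before the start of Th and 4 bases before that of Slc18a2, and 1.79% of all 32851 promoters held it. The Tph2 window held a TATA box (TATAAA) that began 30 bases before its start and a GATA motif that began 128 bases before it, and the Slc18a2 window held a GATA motif on the minus strand. The Slc6a4 window held none of these letters. Among all promoters, 13.6% held the TATA box. The letters searched for the GATA motif were AGATAA, held by 11.2%. A NR4A2 motif (AAAGGTCA), found in 1.51% of promoters, was matched among the members in a Ddc window alone, where it overlapped a TATA box on the same strand. These matches describe the letters of a window of 300 bases, in 10 promoters of 9 members, and the arrays did not measure binding.

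Th, which sets the rate of dopamine synthesis, gave the most densely measured value, since its probe was printed in 10 spots per array. In order of animal number from C10-413 to C10-437, its log2 Cy5/Cy3 was 3.35, 3.57, 3.59, 3.59, 3.08, 3.23, 3.42, 4.31, 3.29 and 3.13. The 9 arrays other than C10-434 kept within 3.08 to 3.59, and C10-434 stood above them. The spread between spots of this probe on an array (SD of 9 or 10 spots) ran from 0.0730 to 0.241 on those 9 arrays and was 0.610 on C10-434. Its Cy5 signal was well above background on all 10 arrays and its Cy3 signal on 9, with C10-434 as the exception. The processed Cy5 signal of Th was lowest on C10-434, at 970.3, against 1917 to 4818 on the others, so the highest ratio stood beside the lowest Cy5 signal. C10-434 was the dimmest array, with 50.2% of spots well above background in Cy5 against 68.8% to 77.5% on the other arrays.

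Slc6a3, the dopamine transporter that marks midbrain dopamine terminals and cell bodies, was measured well above background in Cy5 on every array and in Cy3 on 7. Its log2 ratio, in the same order, was 6.37, 6.39, 6.67, 6.79, 6.61, 5.37, 7.12, 8.05, 7.34 and 5.18. C10-434 was highest, and C10-437 and C10-424 lay apart from the rest at the low end. The processed Cy5 signal separated these low arrays, at 3118 on C10-437 but 7694 on C10-424, with the other 8 between 4005 and 12502. The ratio of Slc6a3 on C10-425, C10-434 and C10-435 rests on a Cy3 signal that was not well above background.

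Slc6a4, the serotonin transporter of raphe neurons, had no Cy3 signal well above background on any array. Its log2 ratio was 4.53, 5.18, 5.04, 4.96, 5.29, 4.38, 4.14, 0.37, 4.07 and 1.59, so 8 arrays lay between 4.07 and 5.29 and C10-434 and C10-437 lay far below. The processed Cy5 signal was 355.6 to 924.2 on those 8 arrays, 114.5 on C10-437 and 29.7 on C10-434, where it was not well above background. Because Cy3 gave only a bound, Cy5 was also set against the lowest Cy3 signal well above background on the same array, or the probe's own Cy3 signal where that was higher, both in the processed signals and after loess and quantile scaling of the average signal. By the lower of these bounds, Cy5 was at least 23.2-fold higher on C10-413 and at least 2.96-fold higher on C10-437, with a median of 12.1 over the 9 arrays that measured Cy5. With the further scaling alone, the values were 24.4 on C10-413 and 3.79 on C10-437. No fold is given for C10-434, and all these bounds are open to dye bias, since no array had the dyes swapped.

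Tph2, the enzyme that starts serotonin synthesis in neurons, was well above background in Cy5 on 9 arrays and in Cy3 on 4. Its log2 ratio was 4.62, 1.93, 3.13, 3.42, 3.97, 4.11, 2.54, 0.30, 2.36 and 1.52. As for Slc6a4, C10-434 was lowest and C10-437 was next, although C10-415 at 1.93 was close to C10-437. In processed Cy5 signal, Tph2 gave 90.5 on C10-437 and 23.7 on C10-434, below the 156.3 to 718.0 of the other 8 arrays. The deposited error of the log ratio, put on the log2 scale, was 2.06 for Slc6a4 and 2.05 for Tph2 on C10-434, where neither dye was well above background.

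**Figure D1:**
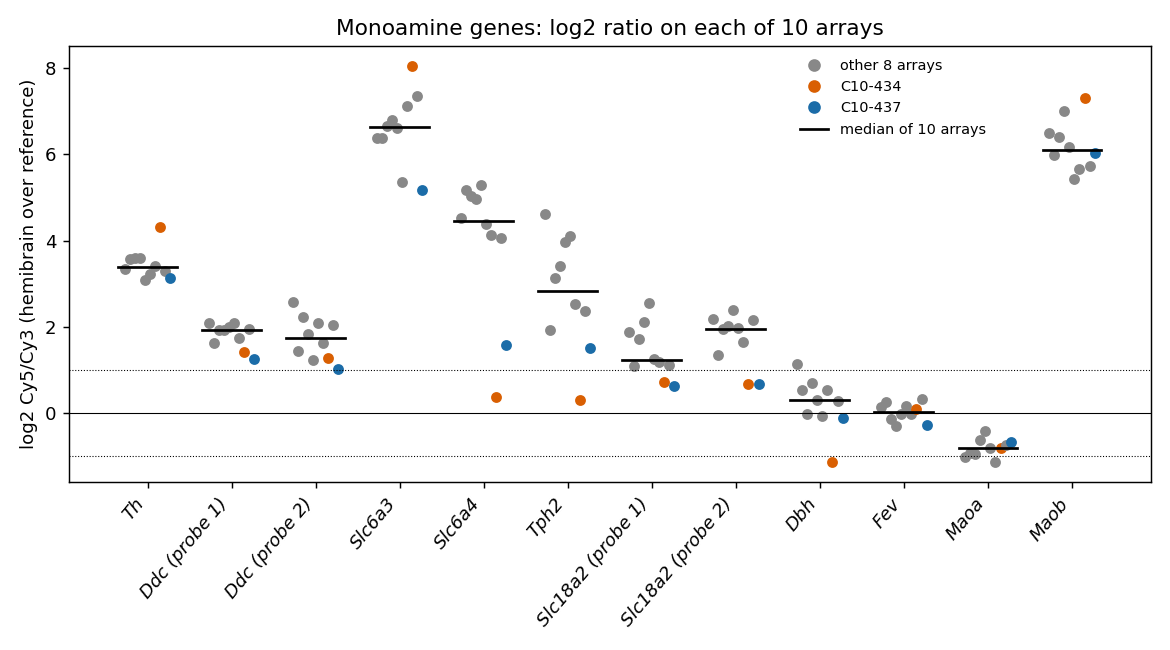
Log2 Cy5/Cy3 of the 12 probes of the 10 monoamine genes, with a point for each of 10 arrays (in order of animal number within a gene) and a bar at the median. C10-434 (orange) and C10-437 (blue) lie below the other 8 arrays for Slc6a4 and Tph2, and dotted lines mark a log2 ratio of 1 and -1.

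Ddc, which acts in both dopamine and serotonin neurons, was measured by 2 probes, A_52_P470150 and A_52_P63905. The brighter probe, A_52_P470150, ran from 1.27 on C10-437 to 2.10 on C10-424, with a median of 1.94. The other ran from 1.02 on C10-437 to 2.58 on C10-413, with a median of 1.73, so C10-437 was the lowest array in both. After each probe's median was subtracted, the probes differed by a median of 0.151 over the arrays and by at most 0.686, on C10-413. Their Pearson's r over the 10 arrays was 0.78, a description of points that share an array and its normalization.

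Slc18a2, the vesicular carrier of all monoamine neurons, ran from 0.64 to 2.55 by probe A_51_P469550, with a median of 1.22, and from 0.67 to 2.38 by probe A_52_P515572, with a median of 1.96. In both probes the lowest arrays were C10-437 and C10-434, at 0.64 and 0.72 by the first-named probe and at 0.67 and 0.68 by the other. The arrays with the highest value were also shared, since C10-423 led in both. The probes differed by at most 0.899 after centring, on C10-423, and their r was 0.81.

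Dbh, the enzyme of noradrenaline neurons, lay near equal signal in both dyes, with a log2 ratio between -0.05 and 1.13 on 8 arrays, -0.11 on C10-437 and -1.12 on C10-434, where its Cy5 signal was not well above background. Its processed Cy5 signal was dim throughout, at 63.2 to 337.5. Fev, the serotonin neuron factor, lay between -0.28 and 0.32 on every array and was well above background in both dyes on all 10. Its values on C10-434 and C10-437, 0.09 and -0.27, were within the range of the other arrays. Those arrays were thus low for Slc6a4 and Tph2 but within the range of the others for Fev.

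The oxidases differed from each other in direction. Maoa, which degrades serotonin and noradrenaline, had a log2 ratio below 0 on all 10 arrays, between -1.14 on C10-425 and -0.42 on C10-423, with a median of -0.80. Maob, which degrades phenylethylamine and dopamine and is abundant in astrocytes and serotonin neurons, lay between 5.44 on C10-424 and 7.32 on C10-434, with a median of 6.10. Both oxidases were well above background in Cy5 on every array, and on C10-437 their ratios, -0.66 and 6.04, were within the range of the other arrays.

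**Figure D2:**
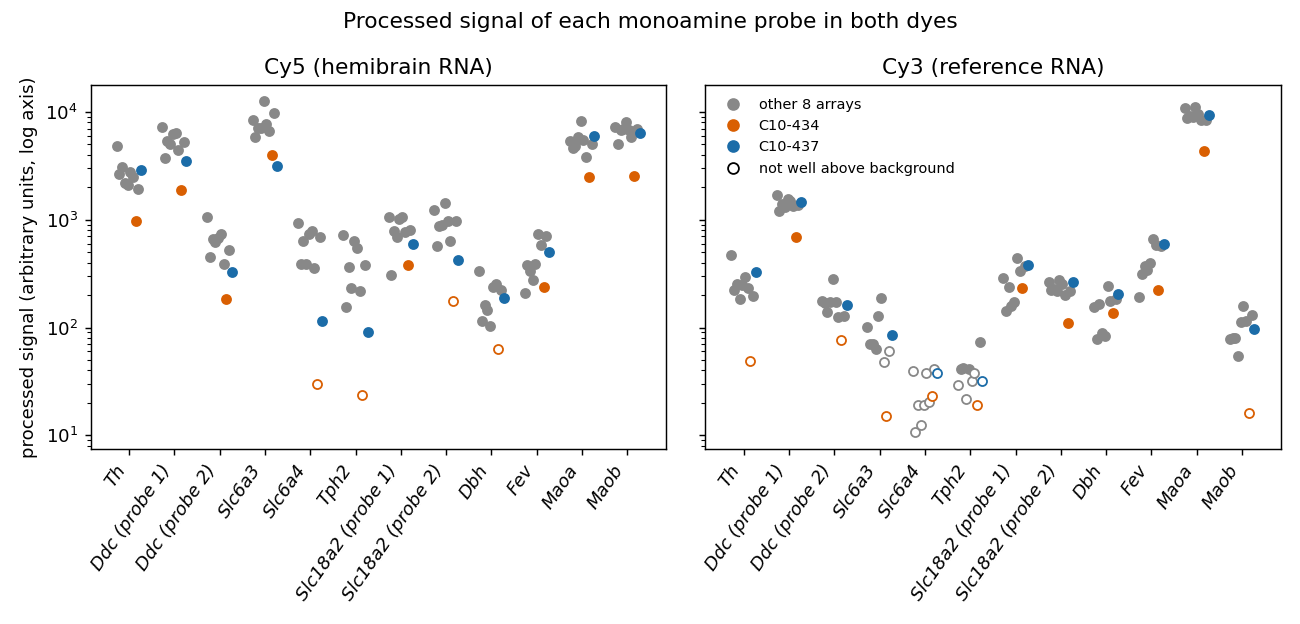
Processed signal of the 12 probes in Cy5 (left) and Cy3 (right) on a log axis, in arbitrary units, with a point for each of 10 arrays and open points where the spot was not well above background. All 10 Cy3 points of Slc6a4 are open, while Maoa and Fev are filled in both dyes.

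Of the 10 members, 4 (Th, Ddc, Slc6a3 and Maob) had a log2 ratio above 1, a 2-fold excess of Cy5, on every array. Among 17659 genes with a value on all arrays, 15.7% did so. Without C10-434, Slc6a4 and Tph2 joined them, which made 6 of 10 against 16.9% of genes, and without C10-434 and C10-437 Slc18a2 did too, which made 7 against 17.2%. No member lay below -1 on every array, where 16.1% of all genes did, and only Maoa was below 0 on all 10. The median of the members' medians was 2.39, against 0.05 over all genes. These counts hold a dissected hemibrain against an RNA on whose source the labels and the methods differ, and they involve no test. In the same ratios, the lists of neuron, astrocyte and oligodendrocyte markers had medians of 4.92, 6.62 and 5.23, so these brain markers too were higher in Cy5. The source of the Cy3 RNA was not tested.

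The array of C10-437 gave low values for Slc6a4, Tph2 and the dopamine transporter Slc6a3 together. Relative to each gene's median over the 10 arrays, its log2 ratio was lower by 2.87 for Slc6a4 (-2.87), by 1.45 for Slc6a3 (-1.45) and by 1.32 for Tph2 (-1.32). These 3 of 10 members lay at least 1 below their median there, against 2.38% of all genes. The Cy3 signals of Slc6a4 and Tph2 were not well above background on this array. Ddc and Slc18a2 were lower as well, at -0.67 and -0.59 by their brighter probes, and at -0.71 and -1.28 by the other ones. Th (-0.25), Fev (-0.31), Maob (-0.06) and Maoa (0.14) lay within the range of their other arrays. Once the dim C10-434 was left out, C10-437 was the lowest of 9 arrays for 6 members (Ddc, Slc6a3, Slc6a4, Tph2, Slc18a2 and Dbh), against 15.2% of all genes. In bulk hemibrain RNA, fewer cells of a type and less RNA per cell cannot be told apart, and a single animal allows no test.

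The same array was also low for Slc6a4, Tph2 and Slc6a3 in the Cy5 signal alone, scaled per array to its 75th percentile and not divided by Cy3. The processed Cy5 signal was already dye-normalized, so it is not wholly independent of Cy3. Against the median of the arrays, C10-437 was at -2.18 for Slc6a4, -1.74 for Tph2, -1.28 for Slc6a3, -0.61 for Ddc and -0.49 for Slc18a2, with -0.89 and -1.10 by the other probes of the last 2 genes. The corresponding values were 0.03 for Th, 0.12 for Fev, 0.11 for Dbh, 0.14 for Maoa and -0.08 for Maob. Thus Dbh, whose ratio on C10-437 was below its median (-0.41), was not low there in Cy5. For Slc18a2, C10-437 was not the lowest array in scaled Cy5. C10-415 was lower by the brighter probe (-1.29), and C10-434 was lower by the other (-1.30). C10-437 was alone on its slide among the arrays held here, and its label gives another position on the slide than its file, so slide and animal cannot be told apart. In Cy5, 72.4% of its spots were well above background, within the range of the other arrays without C10-434.

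C10-434 was low for Slc6a4 (-4.09 against its median), Tph2 (-2.53) and Dbh (-1.42), which made 3 of 10 members at least 1 below their median, against 5.79% of all genes. On the same array the ratio was above its median for Th by 0.93, for Slc6a3 by 1.41 and for Maob by 1.22. In scaled Cy5 signal, by contrast, Th stood at -0.45, Maob at -0.32 and Slc6a3 at 0.16. Slc6a4 stood at -3.05 and Tph2 at -2.60. Th, Slc6a3 and Maob were not well above background in Cy3 there, and Slc6a4, Tph2 and Dbh were not in Cy5. The Cy5 signals of Slc6a4 (29.7), Tph2 (23.7) and Dbh (63.2) lay below the lowest one well above background on C10-434, 124.7. How far these 3 members fell on that array therefore cannot be read from them. The lists of general cell types stood there, in median difference of the ratio, at 1.097 for neurons, 0.68 for astrocytes, 0.44 for oligodendrocytes, 0.02 for endothelium, -0.24 for microglia, 0.27 for red blood cells and 0.31 for liver. How far the dimness of C10-434 shaped these values was not tested.

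**Figure D3:**
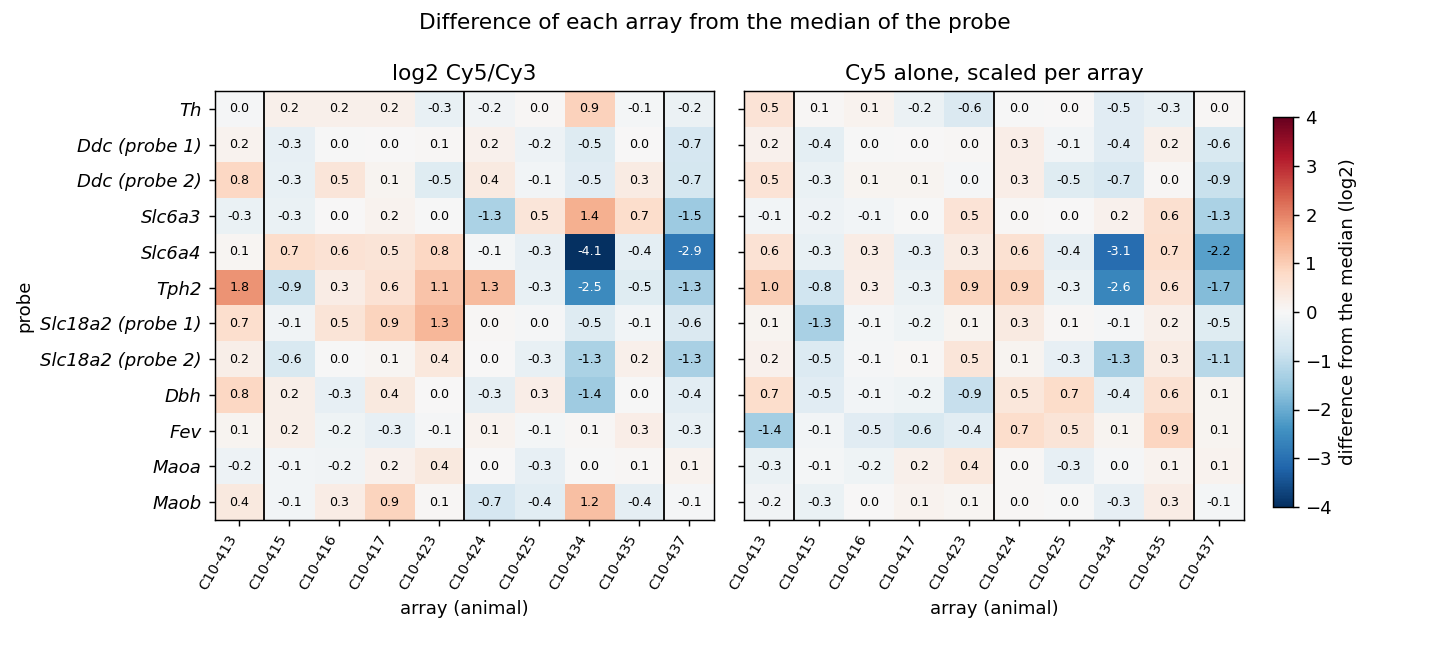
Difference of each array from the median of the probe over 10 arrays, in log2 units, for log2 Cy5/Cy3 (left) and for the Cy5 signal scaled per array (right), with arrays along the x axis, probes along the y axis and black lines between slides. In the left panel the deepest values are those of Slc6a4 on C10-434 and C10-437 (-4.09 and -2.87), in the right panel those of Slc6a4 and Tph2 on C10-434 (-3.05 and -2.60), and Th on C10-434 changes sign between the panels, from 0.93 to -0.45. Slc6a4 and Tph2 were not well above background in Cy5 on C10-434.

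Other genes of monoamine neurons were described beside the members, from lists drawn up for this purpose. On C10-437, where 57.0% of all genes had a ratio below their median, 7 of 8 midbrain dopamine neuron genes did, with a median difference of -0.32 and none at least 1 below. They included Sncg (-0.52), Cplx1 (-0.41), Drd2 (-0.39) and Chrna6 (-0.32), whereas Aldh1a1, a dehydrogenase of ventral midbrain dopamine neurons, stood at -0.02. Of 14 transcription factors that specify monoamine neurons, 10 were below their median there, and Gata3 (-1.34), a factor of serotonin neurons, and Foxa2 (-1.34), a factor of dopamine neurons, were at least 1 below. Nr4a2 (-0.05) and Pitx3 (0.06), which maintain dopamine neurons, stayed near their medians. Foxa2 was low on C10-434 too (-1.46), whereas Gata3 was not (-0.03). Sncg, Drd2, Chrna6, Aldh1a1, Foxa2 and Pitx3 were named after their values were seen. Over all genes the median difference on C10-437 was -0.04 and over the 10 members -0.50.

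The other enzymes and carriers of monoamines had a median log2 ratio of 0.74 over 12 genes, with 3 above 1 and 1 below -1 on every array. Hnmt, which inactivates histamine, led with a median of 3.86, followed by Hdc, which makes histamine, at 2.59. At the low end, Slc6a2, the noradrenaline transporter, had a median of -2.15 with Cy5 well above background on 6 arrays, and Aldh2 had a median of -0.86. On C10-437, 10 of the 12 genes lay below their median by a small amount, with a median difference of -0.12. Genes of the biopterin cofactor, which both hydroxylases need, had a median of -1.65 over 6 genes, with 3 below -1 on every array. Gchfr (-3.86) and Gch1 (-3.27), the regulator and the first enzyme of cofactor synthesis, were lowest, and Pts (0.78) and Spr (-0.18) highest.

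The dopamine list had a median of 1.93, with 4 of 8 genes above 1 on every array. It was led by Slc10a4, a vesicular carrier-like protein of monoamine and cholinergic terminals, at 7.43 and Cplx1 at 5.75, with Gucy2c (0.12) and Ret (0.21) at the low end. Slc10a4 had no Cy3 signal well above background on any array, and Ret was well above background in each dye on only 1. The transcription factor list had a median of 0.13, with 2 above 1 and 1 below -1 on every array. Insm1 (3.78) and Nr4a2 (1.98) were highest, and Gata3 (-2.09) and Foxa1 (-1.61) lowest. The Cy3 signal of Insm1 was not well above background on any array.

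Most markers of general cell types also lay below their medians on C10-437, where 57.0% of all genes did. Those below were 4 of 5 neuron, 3 of 5 astrocyte, 5 of 5 oligodendrocyte and 3 of 5 microglia genes. They were also 3 of 4 endothelium, 2 of 2 red blood cell and 4 of 4 liver genes. Cdh5 (-0.75) and Mag (-0.73) lay further below than Ddc did by its brighter probe (-0.67). Against each gene's median, the neuron list (Snap25, Syt1, Rbfox3, Stmn2 and Tubb3) stood at -0.25, astrocytes at -0.21, oligodendrocytes at -0.21, microglia at -0.09 and endothelium at -0.30, in medians over 4 to 5 genes, and none of these genes was at least 1 below its median. The red blood cell list (2 genes with a value on every array) stood at -0.43 and the liver list (4 genes) at -0.45. All 5 neuron, 5 astrocyte, 5 oligodendrocyte and 5 microglia genes were well above background in Cy5 on every array. The neuron list had a median ratio between 4.70 and 5.11 on 8 arrays, with 4.95 on C10-437 and 5.47 on C10-434. The corresponding values for astrocytes were 6.40 to 6.77, 6.41 and 6.40, for oligodendrocytes 4.95 to 5.49, 5.05 and 4.24, and for microglia 0.99 to 1.42, 1.05 and 1.42. For endothelium they were 3.36 to 4.89, 3.59 and 4.22, for red blood cells 3.81 to 4.64, 3.67 and 4.37, and for liver, 3 of whose 4 genes were not well above background in Cy5 on any array, -0.24 to 0.94, -0.15 and 0.35. The part of these cell types in the monoamine values was not tested.

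**Figure D4:**
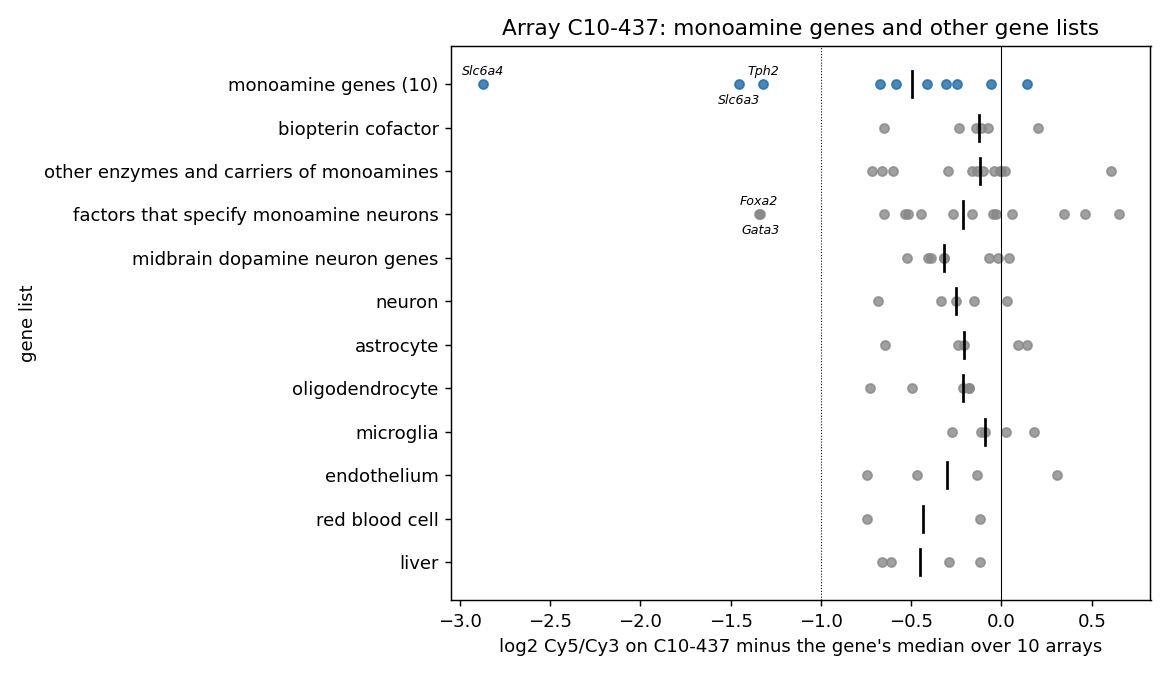
Log2 Cy5/Cy3 on C10-437 minus the gene's median over 10 arrays (x axis) for the monoamine genes (blue) and the genes of 11 other lists (grey), with a point per gene and a bar at the list median. Slc6a4, Slc6a3, Tph2, Gata3 and Foxa2 are the genes past -1, and the other points lie between -0.75 and 0.65.

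Likeness between members was then described by correlation over the arrays, which share labeling, slides and scaling, and no p is given. Over 45 pairs of members, Pearson's r of the log2 ratio had a median of 0.01. Tph2 and Ddc were the most alike pair (r = 0.88), and this r was 0.87 without C10-434 and 0.86 on the 8 arrays left without C10-434 and C10-437. By the other Ddc probe, r with Tph2 was 0.65 over 10 arrays and 0.43 over those 8. Slc6a4 and Tph2 had r of 0.76, which was 0.53 without C10-434 and 0.08 on the 8 arrays, so their r in ratio fell as the low arrays were left out. Th and Slc6a3, both markers of dopamine neurons, had r of 0.69, which was 0.42 without C10-434 and 0.20 on the 8 arrays, but their r was of the opposite sign in scaled Cy5 signal, at -0.48 over 10 arrays and -0.75 over the 8. Slc18a2 had r of 0.72 with Slc6a4 and 0.78 with Tph2, and 0.61 and 0.63 on the 8 arrays. By its other probe, these values were 0.84 and 0.86 over 10 arrays and -0.02 and 0.69 over 8.

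In scaled Cy5 signal, which is not divided by the weak Cy3 signals, r was higher than in ratio for the pair of Slc6a4 and Tph2. Slc6a4 and Tph2 had r of 0.97 over 10 arrays and 0.90 over the 8 arrays. Over 10 arrays, each was the other's nearest gene among 11295 genes, those well above background in Cy5 on every array and the members, whose median r was 0.01 with Slc6a4 and -0.01 with Tph2. Slc6a4 and Tph2 were not well above background in Cy5 on C10-434. Non-members dim in that way were left out of this pool, so the rank over 10 arrays allows no conclusion. Over the 8 arrays, in the same pool, Tph2 was the 8th nearest gene to Slc6a4, and Slc6a4 the 41st nearest to Tph2. These ranks have the same limit and allow no conclusion either. Ddc followed with r of 0.90 to Tph2 and 0.86 to Slc6a4 over 10 arrays, and 0.86 and 0.81 over 8. Slc18a2 had lower r than in ratio over 10 arrays, at 0.30 with Slc6a4 and 0.47 with Tph2, and 0.61 and 0.78 over 8, while its other probe had 0.94 and 0.96 over 10 arrays and 0.72 and 0.84 over 8. Fev had r of -0.11 with Slc6a4 and -0.17 with Tph2 over 10 arrays, and Th had 0.27 and 0.24. Over the 45 pairs, the median r in scaled Cy5 was 0.27.

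**Figure D5:**
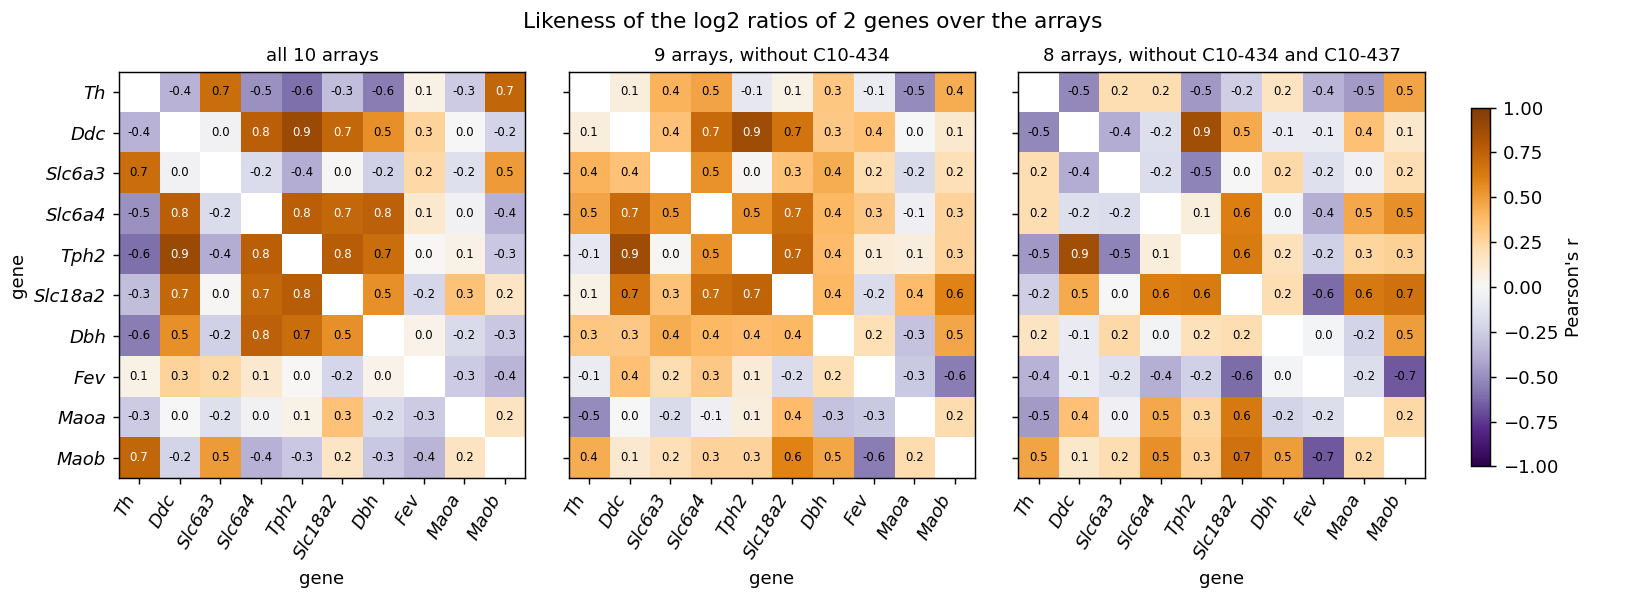
Pearson's r between the log2 ratios of each pair of the 10 monoamine genes (genes on both axes) over all 10 arrays, over 9 arrays and over 8 arrays, with r printed in each cell. Slc6a4 and Tph2 go from 0.76 to 0.53 to 0.08 as C10-434 and then C10-437 are left out, while Ddc and Tph2 stay at 0.86 or above.

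Among genes well above background in Cy5 on every array, those most like Slc6a4 in log2 ratio included Olfr975 (r = 0.93), Sostdc1 (0.91), Rhpn2 (0.90) and Mgat4c (0.88). For Tph2 the 5 most alike were Dleu7 (0.92), Zdhhc6 (0.92), Dlx6os1 (0.91), Ddc (0.88) and Extl2 (0.87). For Slc6a3 they were Rab40c (0.93), Bhlha9 (0.93), Syn3 (0.91), Acadvl (0.90) and Hes5 (0.90). For Th they were Ppp2r2c (0.99), Tuba1c (0.99), Rgs9 (0.98), Rnf112 (0.98) and Brsk2 (0.98). These neighbours changed with the arrays used. Of the genes nearest to Slc6a4, Olfr975 was among the 5 nearest on the 8 arrays too (0.96), and of those nearest to Slc6a3, Syn3 was (0.89). Of those nearest to Tph2 and Th, 0 were. Over the 10 arrays, the median r over all genes lay between -0.07 and 0.11 for these 4 members.

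The slides offered the comparison that the files allow across all probes, with 4 arrays of a slide (C10-415, C10-416, C10-417 and C10-423) set against 4 of another (C10-424, C10-425, C10-434 and C10-435). By limma with Benjamini-Hochberg adjustment, 0 of the 12 member probes were called at an adjusted p under 0.05, against 30 of 40299 probes (0.0744%), and an unadjusted p under 0.05 was reached by 2 member probes and 4034 probes in all. Those 2 were the brighter Slc18a2 probe, lower on the latter slide by a log2 difference of -0.81 (SE 0.30, limma adjusted p = 0.395), and Slc6a4, at -1.88 (SE 0.79, limma adjusted p = 0.470). Without C10-434, Slc6a4 differed by -0.92 (SE 0.17, limma adjusted p = 0.104), with 4.96 to 5.29 on the former slide and 4.07 to 4.38 on the latter. These ratios rest on Cy3 signals that were not well above background on any array. In scaled Cy5 signal, against its median, the same arrays overlapped, at -0.32 to 0.34 on the former slide and -0.36 to 0.67 on the latter. With normexp or with floored subtraction of the background, the difference of Slc6a4 was -0.0037 (SE 0.45) or -0.13 (SE 0.29), and that of the brighter Slc18a2 probe -0.32 (SE 0.36) or -0.36 (SE 0.27). Maob differed by -0.34 (SE 0.41), and by -0.77 (SE 0.25, limma adjusted p = 0.310) without C10-434. The other Slc18a2 probe differed by -0.31 (SE 0.34). Tph2 differed by -0.78 (SE 0.73), by -0.11 (SE 0.55) without C10-434 and by -1.38 (SE 0.63, limma adjusted p = 0.559) without C10-424. Slc6a3 differed by 0.36 (SE 0.48), by -0.0027 (SE 0.43) without C10-434 and by 0.89 (SE 0.25, limma adjusted p = 0.287) without C10-424. The slides hold different animals of unsettled diet, so slide, animal and diet cannot be told apart.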

How the data were processed

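Hemibrain RNA (Cy5) and a comparison RNA (Cy3) were hybridized to 10 dual dye Agilent mouse arrays. The authors deposited Feature Extraction output (10.10.1.1 per the file headers), in which each processed signal is an intensity on a linear scale, already background-subtracted and dye-normalized. They also deposited a log10 ratio of Cy5 to Cy3 with its error, a score of the software, and a table of log2 ratios in which the member values equal the log2 of the processed ratio to within 1.46e-06. The table's array medians lay between -0.05 and 0.10. Flags for background, saturation and outliers were used as deposited. No spot was saturated.

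From these files, log2 Cy5/Cy3 was computed from the processed signals, without control spots and outlier spots, and repeat spots were averaged. A probe counted as well above background when at least 0.5 of its spots were flagged so. Probes were named by accession through RefSeq (GRCm38.p6, for names and promoters), which matched 27198 of 41174. For a gene with several probes, the one brightest over both dyes stood for it. Precision is limited by how many arrays there are and by signal over background. Since the labels do not settle the diets, no sample was put in a group. Slides were compared with limma 3.58.1 in R 4.3.3, tested on simulated data. Other values were computed in Python 3.11.15. The members and gene lists were chosen with earlier results of these data known. Named genes were all members, up to 4 of each list on monoamine neurons by the highest and lowest medians, and the 5 genes most like Slc6a4, Tph2, Slc6a3 and Th, of which 1 is not reported here. Genes named for their value on C10-437 were chosen after it was seen. Alternatives were loess (span 0.3), median centring, the deposited log ratio and table, normexp (offset 50, on median signals), kept outlier spots, all probes of a gene, only probes well above background, Cy5 alone, and arrays left out, whose effect is given with the closing results. Subtraction with values under 0.5 set to 0.5 was added after seeing the data, as were C10-434 and C10-437 left out together, normexp for the correlations, the Slc6a4 bound in the processed signals and all alternatives of the count on C10-437.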

Additional observations from a re-analysis of the deposited data

Results flagged for a closer look

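The log2 Cy5/Cy3 of Th on C10-434, 4.31, lay further from the nearest array than Dixon's gap test for 10 arrays allows. The gap was 0.584 of the whole range, past the critical value. It was 1 of 12 member probes tested in this way, and chance alone marks about 1 in 20 such sets. On the same array, Th was not well above background in Cy3, its 9 kept spots had an SD of 0.610, and its scaled Cy5 signal was below the median of the arrays by 0.45 (-0.45).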

How the results depend on the processing

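The count of members with a ratio above 1 on every array was 4 with loess, median centring, the deposited log ratio, the deposited table, kept outlier spots, all probes of a gene, the floored subtraction and without C10-437. The share of all genes was 13.3% to 17.2% in these settings. The count was 6 without C10-434 (16.9% of genes) and 7 without C10-434 and C10-437 (17.2%), 1 (Ddc) with only the 4 members whose probe was well above background in both dyes on every array (17.3%), and 0 with normexp (3.4%). The median of the members' medians, 2.39, was 0.80 with normexp, 1.33 with floored subtraction and 0.63 over those 4 members, and between 2.31 and 2.61 otherwise. The count below -1 on every array was 0 in each setting. The 3 members at least 1 below their median on C10-437 were the same under loess, centring, the deposited log ratio and table, kept outlier spots, all probes of a gene, without C10-434 and in Cy5 alone. They were 2 (Slc6a3 and Slc6a4) with floored subtraction (0.227% of genes), 1 (Slc6a3) with normexp (0.119%), and 0 among the 4 members above background in both dyes (0.425%). The fitted normexp background was implausible on some arrays, at -2836 in Cy5 on C10-413. The cause of the lower values with normexp and floored subtraction was not tested. Of the 114 alternative medians of single members, 103 moved by less than the SD over the arrays, and the 11 others came from normexp or floored subtraction. The deposited log ratio, the deposited table and kept outlier spots nearly repeat the main values, so the medians could hardly move in those settings. The probes called between the slides were 30 with loess, 29 with centring and 31 in the deposited table, but 68 among probes well above background in Cy5 on all 8 arrays, 1 with floored subtraction, 0 with normexp, and 0 to 18 when an array was left out (2 without C10-415, 18 without C10-423, and 0 without C10-416, C10-417, C10-424, C10-425, C10-434 or C10-435), with 0 members called in each. The median r over the 45 pairs, 0.01, was 0.32 without C10-434, -0.10 without C10-437, 0.08 without both, 0.27 in Cy5 alone and 0.56 with normexp. No paired analysis was possible because no array was assigned to a group. Ratios of Slc6a4, and of Tph2 on 6 arrays, rest on Cy3 signals not well above background, which limits their precision more than that of Maoa or Fev.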
